A study of Zeugodacus cucurbitae with 6 samples.

Results

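Cell cycle and DNA replication genes of the melon fly *Zeugodacus cucurbitae* were followed in 3rd instar larvae that had been exposed to gamma radiation as eggs. A gene was taken as a member when its symbol in the deposited table began like the name of a cyclin, a cyclin-dependent kinase, a Cdc, Bub, Mad, Aurora, Polo, Fzr, Mcm, Orc, Gins, Rfc, replicative polymerase, primase, Anapc, Cenp, Smc or Ncap gene. The rule found 6 of the 12834 genes, which are *Orc1_0*, *Mcm10_1*, *Mcm3_1*, *Cdk4_0*, *Ncapd2_1* and *Fzr1_0*. Of the genes in the table, 11801 are listed under a number only, so cyclins, Cdk1, Polo, Aurora and most Mcm and Orc genes could not be picked out by name, and the 6 members are a small sample of this machinery. The number that ends each symbol is not explained in the sources used here. Each role below is that of the gene that the symbol names in other animals.

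The non-irradiated group (0 Gy) and the irradiated group (50 Gy from cobalt-60, at 1.0 Gy per min, given to eggs about 25 h old) were reared on artificial larval diet. RNA came from 3 pools of 20 whole larvae in each group, and the pools are the replicates. By the study's methods each pool was drawn from a replicate set of egg dishes of its own, and p-values measure the spread between the libraries as labelled. Irradiated replicates 1 and 2 were nearly alike, as given below, and whether they came from separate larvae was not tested. If they did not, the tests that count them apart would understate the spread between pools. RNA of a pool mixes all tissues, so fewer cells of a kind and less RNA per cell cannot be told apart. Larvae were sampled at the 3rd instar, so the values describe the state reached after development from irradiated eggs, not the hours after exposure.

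Before a cell divides, the origin recognition complex marks the start sites of DNA replication, the Mcm helicase is loaded there and opens the DNA, and Mcm10 helps to turn the loaded helicase into an active fork. Cyclin-dependent kinases drive the cell through these steps and into mitosis, condensin folds the chromosomes, and the anaphase promoting complex, a ubiquitin ligase, destroys the mitotic cyclins. Its activator Fzr1 (fizzy-related, or Cdh1) works late in mitosis and in G1 and restrains a new round of division. In *Drosophila*, most larval tissues grow by endocycles, in which DNA is copied without division, and fizzy-related is needed for the switch from dividing cycles to endocycles, while imaginal discs, neuroblasts and gonads keep dividing.

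The total count on genes ranged from 13192748 to 18311658 per library. Irradiated replicates 1 and 2 stood apart from the other libraries by being nearly alike, with a Spearman correlation of 0.992 across genes against 0.955 to 0.982 for the other 14 pairs, and their counts differed by 2.88 times the variance of sampling noise against at least 89.5 times in every other pair. They were kept as labelled. For *Fzr1_0*, for *Top2* and *Dll_0*, described further on, and for the counts of calls, results with their counts summed into 1 library are also given. Statements that the groups did not overlap count them as 2 libraries throughout. Counts were scaled with the TMM method to normalized CPM, which sets them to a common library total, and the quasi-likelihood test of edgeR was run on the 9768 genes with enough counts, with p-values adjusted over all of these by Benjamini-Hochberg. All 6 members had enough counts in both groups to be tested.

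*Fzr1_0* was the only member that passed an adjusted p of 0.05, and it was higher in the irradiated larvae. The other 5 members, all of which promote replication or division, had a log2 fold change below 0, as did 51.5% of all tested genes. Their values ran from -0.51 for *Ncapd2_1* to -0.07 for *Cdk4_0*, and none of them passed an adjusted p of 0.05. Thus 1 of 6 members was higher and 0 were lower at that threshold, which 3.74% of all tested genes passed in either direction, 2.14% as higher and 1.6% as lower. Without adjustment, 1 of the 6 members was higher and 1 (*Ncapd2_1*) was lower at p under 0.05 in edgeR, against 21% of all tested genes in either direction, 10.7% higher and 10.3% lower. The groups did not overlap for 3 of the 6 members, 1 higher and 2 lower in irradiated larvae, against 28.4% of all tested genes. The study's methods set a threshold on 3 values, with p below 0.05 before adjustment, the log2 fold change 0.58 or more in either direction, and FPKM over 1 somewhere among the libraries. Here it was applied to the p-values and fold changes of edgeR, not to those of the study's own test. It was passed by 1 member, again *Fzr1_0*, as higher and by 0 as lower. Of all tested genes, 11.6% passed in either direction, 6% higher and 5.58% lower. The median log2 fold change of the 6 members was -0.21, beside a median of -0.01 over all tested genes.

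**Figure D1:**
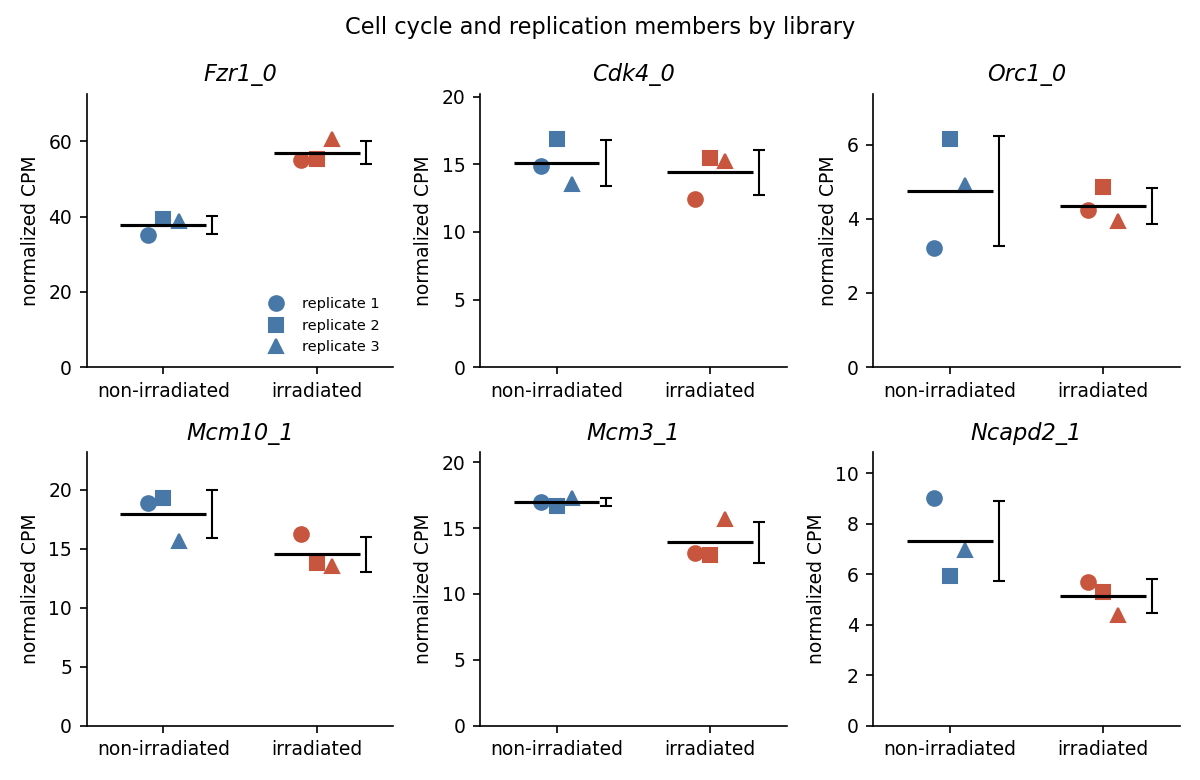
Normalized CPM of the 6 members in each library, with the y axis of each panel starting at 0. Symbols are libraries (circle, square and triangle for replicates 1, 2 and 3), horizontal lines are group means and bars are SD of 3 libraries. The irradiated libraries lie above all non-irradiated libraries for *Fzr1_0* and below them for *Mcm3_1* and *Ncapd2_1*.

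The member that restrains division is described first. *Fzr1_0* stood at 35.0, 39.4 and 38.9 normalized CPM in non-irradiated replicates 1, 2 and 3, and at 55.2, 55.2 and 60.6 in irradiated replicates 1, 2 and 3. The lowest irradiated library was thus well above the highest non-irradiated library, and the groups did not overlap, as was the case with the irradiated libraries higher for 15% of all tested genes. The group means were 37.8 ± 2.43 and 57.0 ± 3.12 normalized CPM (SD, n = 3 libraries each), a 1.51-fold difference. The log2 fold change was 0.59 (standard error 0.11, 95% interval 0.33 to 0.85, adjusted p = 0.0369 from edgeR), and 91.4% of the tested genes had a smaller one. By p it ranked 259 among the 9768 genes. With 503 to 1076 counts per library, counting error alone gave a coefficient of variation of 4.26% and 3.16% in the non-irradiated and irradiated groups, against 6.44% and 5.47% observed between libraries.

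The size of this rise was steadier than its call. The log2 fold change lay between 0.52 and 0.63 in all 16 alternatives, but the adjusted p of edgeR rose to 0.138 with irradiated replicates 1 and 2 summed, and it lay between 0.0555 (without non-irradiated replicate 3) and 0.141 (without irradiated replicate 1) when any 1 of the 6 libraries was left out. The fold lies at the edge of the study's threshold of 0.58 as well, and was 0.54 without non-irradiated replicate 1 and 0.55 without irradiated replicate 3.

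**Figure D2:**
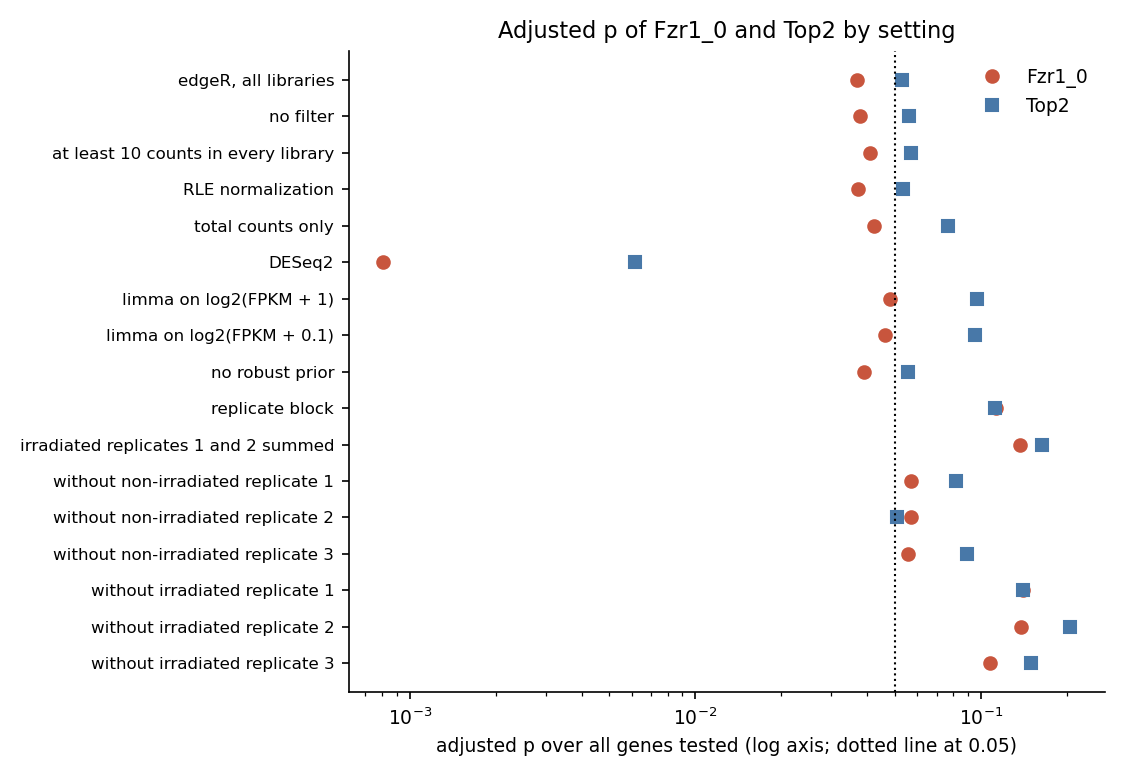
Adjusted p of *Fzr1_0* (red circles) and of *Top2* (blue squares), a topoisomerase gene described further on, on a log axis, for the edgeR test with all libraries and for each of 16 alternatives, with a dotted line at 0.05. *Fzr1_0* lies left of the line in the edgeR test with all libraries (0.0369) and in 8 alternatives, and right of it in the other 8, among them all 6 that leave out a library.

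The genes on either side of *Fzr1_0*, known only by a number, had values of their own. In the gene order of the RefSeq assembly idZeuCucr1.2, LOC105211780 lies on one side, at a log2 fold change of -0.40 (adjusted p = 0.288), and LOC105211782 on the other, at 0.43 (adjusted p = 0.451, both from edgeR). Neither passed the test, and neither overlaps *Fzr1_0* in that assembly. Over all 6 members, 11 of 12 next or overlapping genes were tested and 0 passed an adjusted p of 0.05, against 3.74% of all tested genes. At an unadjusted p under 0.05 in edgeR, 1 was higher and 0 were lower, against 10.7% and 10.3% of all tested genes.

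Set against the other members within each library, where the scaling between libraries cancels, *Fzr1_0* stood at 0.555, 0.607 and 0.667 times the summed normalized CPM of the other 5 members in the non-irradiated libraries and at 1.07, 1.05 and 1.15 times that sum in the irradiated libraries. In irradiated larvae its reads therefore outnumbered those of the 5 promoting members together, but this count of reads makes no allowance for gene length. Per length it did not exceed them together. Its mean in irradiated larvae was 12 FPKM, beside 7.22 for *Cdk4_0*, 5.73 for *Mcm10_1* and 4.95 for *Mcm3_1*. The ratio of the normalized CPM of *Fzr1_0* to that of each of the 5 taken alone was also higher in every irradiated than in every non-irradiated library. Against *Mcm3_1*, for example, it was 2.22 ± 0.15 and 4.11 ± 0.222 (SD, n = 3 libraries each). These ratios describe the libraries from which the rise of *Fzr1_0* was called and are no separate test of it.

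The 3 replication members, *Orc1_0*, *Mcm10_1* and *Mcm3_1*, had log2 fold changes of -0.13, -0.31 and -0.29 (median -0.29), and none passed the test. *Mcm3_1* encodes a subunit of the helicase ring that unwinds DNA at the fork. It stood at 17.0, 16.7 and 17.3 normalized CPM in the non-irradiated and at 13.1, 12.9 and 15.7 in the irradiated libraries. The groups did not overlap, as for 13.4% of all tested genes with the irradiated libraries lower. The non-irradiated libraries were closer to each other (coefficient of variation 1.77%) than counting error alone would give on average (6.34%), while irradiated replicate 3 stood above the other irradiated libraries. The log2 fold change of -0.29 had a 95% interval from -0.58 to 0.00 (adjusted p = 0.239 from edgeR), so a decrease to 0.67 of the control level and no change both lie within it.

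*Mcm10_1* encodes the factor that joins the helicase to the polymerases at a firing origin. Its values were 18.9, 19.3 and 15.6 normalized CPM without irradiation and 16.2, 13.8 and 13.6 with it. Non-irradiated replicate 3 lay below irradiated replicate 1, so the groups overlapped. The means of 18.0 ± 2.02 and 14.5 ± 1.47 (SD, n = 3 libraries each) gave a log2 fold change of -0.31 (95% interval -0.63 to 0.02, adjusted p = 0.266 from edgeR).

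*Orc1_0* encodes the largest subunit of the origin recognition complex, in *Drosophila* a protein that the anaphase promoting complex with fizzy-related marks for destruction. It stood at 3.20, 6.15 and 4.90 normalized CPM in the non-irradiated and at 4.23, 4.87 and 3.94 in the irradiated libraries. The lowest and the highest of the 6 libraries were both non-irradiated, and the irradiated libraries lay between them. With 46 to 88 counts per library, the spread between libraries was 31.2% without irradiation, where counting error alone gives 12%, and 10.9% with it, where counting error gives 11.4%. The log2 fold change of -0.13 (95% interval -0.75 to 0.49, adjusted p = 0.83 from edgeR) leaves room for a change in either direction, and it was 0.10 without non-irradiated replicate 2.

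*Cdk4_0* encodes the kinase that pairs with cyclin D in G1 and, in *Drosophila*, promotes cell growth along with division. It stood at 14.9, 16.9 and 13.5 normalized CPM in the non-irradiated and at 12.5, 15.5 and 15.3 in the irradiated libraries. The groups overlapped over most of their range. Its log2 fold change was -0.07, the smallest in size of the members, with a 95% interval from -0.41 to 0.27 (adjusted p = 0.837 from edgeR). It was above 0 without non-irradiated replicate 2 (0.02) and without irradiated replicate 1 (0.03).

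*Ncapd2_1* encodes a subunit of condensin, the complex that compacts chromosomes as cells enter mitosis. It stood at 9.04, 5.92 and 6.95 normalized CPM in the non-irradiated and at 5.70, 5.31 and 4.39 in the irradiated libraries. The groups did not overlap, although irradiated replicate 1 came close to non-irradiated replicate 2, and non-irradiated replicate 1 stood above all others. The means were 7.30 ± 1.59 and 5.13 ± 0.671 (SD, n = 3 libraries each), and the log2 fold change was -0.51 (95% interval -1.0 to -0.02, adjusted p = 0.227 from edgeR). This was the largest difference below 0 among the members, with an unadjusted p of 0.0444 in edgeR, but it did not pass the adjusted test. The genes on either side of it were LOC105216810 at -0.57 (adjusted p = 0.268 from edgeR) and LOC105216813 at -0.43 (adjusted p = 0.273 from edgeR). Both lay lower in every irradiated than in every non-irradiated library, as did 13.4% of all tested genes, without passing the test. The same held for LOC105217364 and LOC105217366, which overlap or lie next to *Orc1_0*. LOC105217819, next to *Cdk4_0*, lay higher in every irradiated library, as did 15% of all tested genes. For the other tested neighbours of members the groups overlapped. The log2 fold change of *Ncapd2_1* was -0.33 without non-irradiated replicate 1 and -0.64 without non-irradiated replicate 2. With *Fzr1_0*, the only other member that acts in mitosis, the 2 genes lay on opposite sides of 0, so that their median of 0.04 describes neither.

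**Figure D3:**
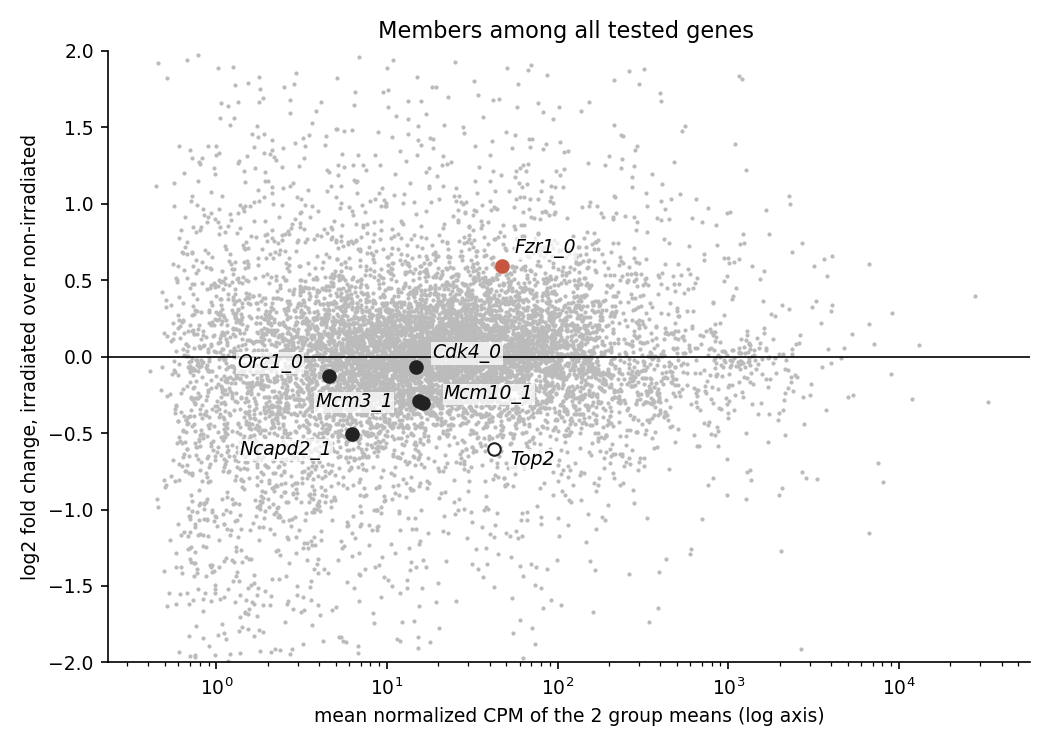
Log2 fold change (irradiated over non-irradiated) against the mean normalized CPM of the 2 group means, on a log axis. Grey points are all tested genes apart from 272 beyond a log2 fold change of 2 in either direction, filled circles are the 6 members (red where the adjusted p is under 0.05) and the open circle is *Top2*. *Fzr1_0* lies above 0 at 0.59, and the other 5 members lie below 0.

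Levels can be compared between genes only per length, so the order of the members was taken from FPKM (fragments per kilobase of gene, scaled by the library total). In non-irradiated larvae, *Fzr1_0* came first at 8.03 ± 0.122 FPKM, followed by *Cdk4_0* at 7.66 ± 0.802, *Mcm10_1* at 7.19 ± 1.03, *Mcm3_1* at 6.13 ± 0.483, *Ncapd2_1* at 2.07 ± 0.61 and *Orc1_0* at 1.59 ± 0.394 (SD, n = 3 libraries each). Only *Mcm3_1* and *Ncapd2_1* were neighbours in this order whose libraries did not overlap, so the members formed an upper group of 4 and a lower group of 2. In irradiated larvae, *Fzr1_0* at 12 ± 0.761 FPKM was also clear of *Cdk4_0* at 7.22 ± 0.865, with no library in common range. The last places were then taken by *Orc1_0* at 1.46 ± 0.148 and *Ncapd2_1* at 1.42 ± 0.176, whose libraries overlapped. Among the mean FPKM values of all 12834 genes, the members lay between the percentile of 36.1 (*Orc1_0*) and that of 67.4 (*Fzr1_0*), so none was among the rare or the most abundant transcripts of whole larvae.

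Further genes of the pathway were looked up from a list of symbols for replication, G1/S and G2/M control, and mitosis and cytokinesis. Of these, 8 are reported here. *Ald_4*, *Ald_5* and *Asl_0* were among the 8 but carry names that aldolase and argininosuccinate lyase share with the listed mitotic genes, and are not described further. *Ald_4* had a single count in all libraries and was not tested. Of the 7 tested genes, 0 passed an adjusted p of 0.05 in either direction, and the median log2 fold change was -0.31. These 7 include *Ald_5* and *Asl_0*, and without them 5 tested genes remain, with a median of -0.34. At an unadjusted p under 0.05 in edgeR, 0 of the 7 were higher and 2 (*Top2* and *Rbf_1*) were lower, against 10.7% and 10.3% of all tested genes. Both of these are among the 5. DESeq2 gave *Top2* an adjusted p of 0.00616.

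*Top2* encodes topoisomerase II, which untangles replicated DNA and shapes mitotic chromosomes together with condensin. It stood at 52.8, 45.1 and 54.5 normalized CPM in the non-irradiated and at 36.8, 30.6 and 33.0 in the irradiated libraries. Every irradiated library lay below every non-irradiated library, as for 13.4% of all tested genes. This held for 3 of the 5 pathway genes left without *Ald_5* and *Asl_0*, and the reverse held for 0. The means of 50.8 ± 4.99 and 33.5 ± 3.14 (SD, n = 3 libraries each) gave a log2 fold change of -0.60 (95% interval -0.90 to -0.30). The adjusted p was 0.0532 in edgeR, just short of the threshold. With the values of edgeR, *Top2* met the study's threshold as 1 of the 7 tested genes, or 1 of 5 without *Ald_5* and *Asl_0*. At that threshold 5.58% of all tested genes were lower. The log2 fold change of *Top2* lay between -0.68 and -0.53 in all alternatives. With irradiated replicates 1 and 2 summed, its adjusted p was 0.164 in edgeR.

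*Rbf_1* names the retinoblastoma family factor, which holds back the genes of S phase by binding E2F, and *Dp_0* the partner of E2F. The symbol of *Dp_0* stands for different genes in fly and vertebrate names. *Rbf_1* stood at 21.8, 19.6 and 19.8 normalized CPM without irradiation and at 16.6, 16.7 and 16.2 with it (log2 fold change -0.31, adjusted p = 0.155 from edgeR). Its groups did not overlap, as for 13.4% of all tested genes with the irradiated libraries lower. *Dp_0* ranged from 28.9 to 33.3 in the non-irradiated and from 26.3 to 29.8 in the irradiated libraries, which overlapped (log2 fold change -0.14, adjusted p = 0.509 from edgeR). A restrainer of S phase thus lay lower in the same larvae in which *Fzr1_0* was higher, without passing the test. *Myt1_1*, whose symbol names both an inhibitory kinase of Cdk1 and a vertebrate transcription factor, had a log2 fold change of -0.60 (adjusted p = 0.252). *Haspin*, a kinase of mitotic chromatin, stood at -0.34 (adjusted p = 0.609, both from edgeR).

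**Figure D4:**
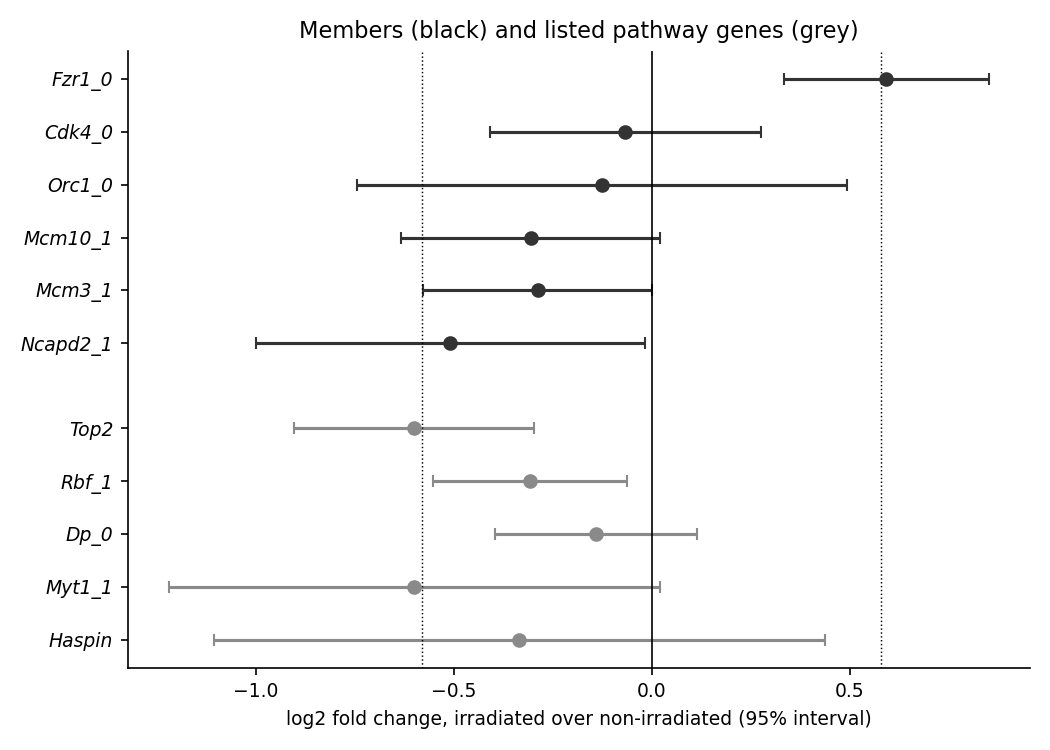
Log2 fold change of irradiated over non-irradiated larvae for the 6 members (black) and for 5 genes of the pathway list (grey), with 95% intervals from edgeR's quasi-likelihood test. Dotted lines mark 0.58 in either direction. *Fzr1_0* lies right of 0, the other genes drawn lie left of it, and the intervals of *Ncapd2_1*, *Top2* and *Rbf_1* are the ones among these that end below 0.

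A further 8 genes were added after the table had been seen. *Apc10*, a subunit of the anaphase promoting complex and so a partner of Fzr1, had a mean of 1.76 ± 0.232 without and 1.95 ± 0.143 normalized CPM with irradiation (SD, n = 3), and its log2 fold change was 0.15 (95% interval -0.44 to 0.74, adjusted p = 0.788 from edgeR). Its groups overlapped. *Roc1a*, the RING subunit of the SCF ubiquitin ligase, which in G1/S destroys proteins that hold the cycle back, had a log2 fold change of -0.37 (adjusted p = 0.21 from edgeR). *Caf1_0* had -0.31 (adjusted p = 0.174 from edgeR). Its symbol is used for a histone-binding protein of chromatin assembly but stands for different genes in fly and vertebrate names. *Gnf1*, the large subunit of the clamp loader of replication forks, stood at 0.14, *Topbp1-a*, which acts at origins and in the damage checkpoint, at 0.11, *Tlk2_0*, a kinase of chromatin assembly, at -0.07, *Grip84_2*, of the gamma-tubulin complex, at -0.21 and *Ripalpha*, a partner of replication protein A, at -0.40. In all, 0 of the 8 passed an adjusted p of 0.05 in edgeR or in DESeq2, and at an unadjusted p under 0.05 in edgeR 0 were higher and 2 (*Roc1a* and *Caf1_0*) were lower, beside the same 10.7% and 10.3% of all tested genes.

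Markers of the tissues in which larval cells divide could be read for imaginal discs only, and there for 1 of 16 listed symbols. *Dll_0* (Distal-less), of the leg and antennal discs, had 2.67 ± 0.495 normalized CPM in the non-irradiated libraries (SD, n = 3) and 0.117, 0.277 and 0.0563 in irradiated replicates 1, 2 and 3, with a log2 fold change of -4.08 (adjusted p = 0.0141 from edgeR). The irradiated values are 2, 5 and 1 counts. In 15 alternatives chosen after seeing the data, it passed an adjusted p of 0.05 in 12. The adjusted p of edgeR was 0.0578 with irradiated replicates 1 and 2 summed, 0.0616 with the replicate block and 0.0728 without irradiated replicate 1. The log2 fold changes there were -4.15, -4.09 and -3.93. Over all 15 they ran from -4.83 to -0.98, the last with limma at a pseudocount of 1. *Dll_0* was thus lower in the libraries in which *Fzr1_0* was higher, and its part in the values of the members was not tested. No symbol of the lists for germ line, neuroblasts or spermatocytes was in the table. As a check of whole larvae, the muscle gene *Mlc1_1* (myosin light chain) stood between 1541 and 2629 normalized CPM in all libraries and the gut gene *Amy-d_0* (amylase) between 8.01 and 25.0, while *Amyrel_1*, also amylase-like, had 3.77 ± 0.852 without and 0.902 ± 0.59 normalized CPM with irradiation (SD, n = 3), which did not pass the test (adjusted p = 0.0637 from edgeR). The list for fat body was matched only by *Hex-t2_3*, with 0 to 4 counts, and that for salivary gland by no symbol.

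Reads shared with other genes limit some of these values. In assembly idZeuCucr1.2, *Cdk4_0* overlaps LOC105219906 (log2 fold change -0.08), while *Orc1_0* overlaps LOC105217364 (log2 fold change -0.60, adjusted p = 0.271 from edgeR). Whether strand was used in counting is not given in the sources used here, so reads in the overlaps cannot be assigned. Other copies of the members may be listed under numbers, and reads of near-identical copies could have been divided between them.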

How the data were processed

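RNA was measured in 3 non-irradiated and 3 irradiated pools of 3rd instar larvae, grouped by their sample titles. The authors aligned paired-end reads with HISAT2 and counted them per gene with HTSeq, and the deposited counts are raw whole numbers without normalization. The deposited FPKM values are those counts divided by gene length and library total. Here the counts were tested with edgeR 4.0.16 in R 4.3.3 (TMM, filterByExpr, glmQLFit and glmQLFTest, robust dispersion prior) on all genes, with Benjamini-Hochberg adjustment. The standard error is the log2 fold change divided by the square root of F, and 95% intervals use the degrees of freedom of the test. A single count was worth 0.0546 to 0.0758 CPM. Counting errors are those of Poisson counts and cover counting only.

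Alternatives were DESeq2 1.42.0, limma 3.58.1 on log2 FPKM values with a pseudocount of 1 or 0.1, other filters and scalings, no robust prior, the replicate number as a block, irradiated replicates 1 and 2 summed, and each library left out. The members, lists, tests and alternatives were chosen with earlier results of these data known. All members are given with all their values. The edgeR script was tested on simulated counts. Neighbouring genes were read from RefSeq's table for idZeuCucr1.2, which matched 11831 of 12834 identifiers. Because this is not the build that the authors used, coordinates are left out. No sequences were analysed here. 1 gene of the pathway list is not reported here.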

Additional observations from a re-analysis of the deposited data

How the results depend on the processing

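The count of 1 member higher at an adjusted p under 0.05 stayed at 1 in 8 alternatives and was 0 with the replicate block, with irradiated replicates 1 and 2 summed, and without any 1 library (0 to 0). For *Fzr1_0*, the log2 fold change was 0.59 with the block (adjusted p = 0.113) and 0.62 with the pair summed (adjusted p = 0.138). By the study's threshold the count of higher members was 0 with scaling by total counts only and with limma at a pseudocount of 1 or 0.1, and 0 to 1 with a library left out. The count of lower members by that threshold was 0 to 1 with a library left out, *Ncapd2_1* passing without non-irradiated replicate 2. The count of lower members at an adjusted p under 0.05 was 0 in every alternative. The log2 fold changes that changed sign did so only with a library left out, where *Orc1_0* ranged from -0.34 to 0.10, *Cdk4_0* from -0.14 to 0.0295, *Tlk2_0* from -0.11 to 0.0153 and *Topbp1-a* from -0.0177 to 0.30. Among the members and the 5 pathway and 8 added genes described, *Fzr1_0* and, with DESeq2, *Top2* were the only ones to pass an adjusted p of 0.05 in any alternative run. Over all genes, the 209 higher and 156 lower calls were 54 and 35 with the block, 20 and 5 with the pair summed, 554 and 480 with DESeq2, and 18 to 162 and 3 to 154 with a library left out. Same-numbered libraries of the 2 groups did not deviate together (correlations of -0.01, -0.10 and -0.15 for replicates 1, 2 and 3), so the numbers are not taken as pairs. Among the 6 members, *Orc1_0* had the fewest counts, 46 to 88 per library. *Dll_0* had no value under the filter of at least 10 counts in every library, which it did not pass.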
